A study of Danio rerio with 57 samples.

Results

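Solvent controls that had received DMSO from the start of development were compared at 96 hpf (hours post fertilization) with solvent controls that had received DMSO from 24 hpf only. The members are defined by their labels (substance DMSO, age 96 hpf), with 3 libraries of DMSO from the start and 3 of DMSO from 24 hpf, 6 of the 57 libraries of the series. Another library of DMSO from the start was left out because it held 13 counts from 19 reads. The study exposed zebrafish embryos to the kinase inhibitor sorafenib or to rotenone, an inhibitor of mitochondrial complex I, from an early or a late start, and DMSO was the carrier of both substances. Each library is RNA of whole bodies, a pool of 20 wild-type embryos of the strain OBI/WIK, generation F3, from 2 vials of 10 embryos in 4 mL. Both groups carry the wild-type genotype and were kept at 26 °C.

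The label of the start is 0 hpf for DMSO from the start, where the description of the series and the methods of the study give 2 hpf. Embryos of DMSO from 24 hpf were kept until then at 50 eggs per 100 mL of water and were moved to the small closed vials with the solvent. At sampling, DMSO from the start had thus been in the vials for 96 h by the labels and DMSO from 24 hpf for 72 h. The hours in DMSO, the hours in the vials, the storage before them and the position of the libraries (tubes 11 to 13 for DMSO from the start and 76 to 78 for DMSO from 24 hpf) differ together between the groups. The labels name no spawning, no day and no sequencing batch. The timing of the solvent and any batch cannot be told apart in this comparison, and no difference below can be read as an effect of DMSO itself. Nothing in the labels says that the pools of a group came from separate spawnings, so the p-values measure the spread between pools. That spread was estimated over all 18 groups fitted, other ages and substances included, and not from these 6 libraries alone.

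Many of the genes described here belong to the response to low oxygen. Its regulators are the hypoxia-inducible factors (HIF), whose alpha subunits are hydroxylated in the presence of oxygen, bound by the von Hippel-Lindau protein and degraded. When oxygen is scarce the alpha subunits persist, and genes of glycolysis, blood vessel growth, matrix formation and of the hydroxylases themselves are transcribed, so that the pathway also limits itself. In zebrafish, as in mammals, these targets are used as readouts of the pathway.

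The 6 libraries had between 28833259 and 86897183 counts on genes. DMSO from the start had 35293125, 28833259 and 86897183 counts in replicates 1, 2 and 3, and DMSO from 24 hpf had 48671065, 50432753 and 47625498 counts. The share of reads counted on genes was 77.02% ± 0.385 in DMSO from the start and 77.5% ± 0.337 in DMSO from 24 hpf (SD, n = 3 each, exact permutation test, two-sided, p = 0.3, where the smallest p of this design is 0.1). The shares of counts in mitochondrially encoded genes, ribosomal protein genes and the 100 top genes and the number of genes with a count gave p between 0.4 and 0.9 in the same exact test. Of 17 markers of tissues that a whole larva should hold, 13 were matched by symbol. All of these were present in each of the 6 libraries, with CPM (the count of a gene relative to the TMM-scaled total of its library) between 1.93 and 19561. Between the groups edgeR called 0 of their 16 gene identifiers, against 0.458% of all genes. At that share 16 identifiers can easily hold no call.

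The groups were also placed on a developmental axis. A score was built from the 200 genes that rose most minus the 200 that fell most between 48 and 96 hpf in the rotenone libraries (25 nM from 24 hpf), which are not among the 6 libraries compared. It was 4.95, 4.72 and 4.78 in DMSO from the start, against 4.44, 4.82 and 4.77 in DMSO from 24 hpf (difference of mean log2 CPM). On the same scale the DMSO libraries at 48 hpf had -5.23 and -5.13, and those at 36 hpf had -5.51, -5.49 and -5.59. The 2 groups at 96 hpf overlapped, and their difference of 0.14 was small beside the distance to 48 hpf. The score moved much less from 36 to 48 hpf than from 48 to 96 hpf, so it is not even over time. A difference of some hours between the groups can therefore not be judged from it.

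Between the DMSO groups, 111 of 24246 genes tested were called (edgeR quasi-likelihood test, Benjamini-Hochberg adjusted p under 0.05), 0.458% of them. In DMSO from the start 70 were higher (0.289%) and 41 lower (0.169%). In 110 of the 111 the libraries of the groups did not overlap, WWC1 being the exception, against 22.8% of all genes. The 111 were selected for a difference between these same libraries, so this lack of overlap adds no support to the calls. The median log2 fold change (from the start minus from 24 hpf) of all genes was -0.02, and 1993 genes had an unadjusted p under 0.05. DESeq2 called 218 genes. With RLE in place of TMM scaling the split was 79 higher and 29 lower. The number of calls depended on single libraries. It was 167 without DMSO from the start replicate 1, 183 without DMSO from 24 hpf replicate 3, 38 and 29 without DMSO from the start replicates 2 and 3, and 32 and 24 without DMSO from 24 hpf replicates 1 and 2. It was 939 when 3 libraries of other groups that stand apart were left out of the fit (sorafenib 2.4 µM at 36 hpf replicate 1, rotenone 50 nM at 36 hpf replicate 1 and rotenone 25 nM at 48 hpf replicate 2, all from 24 hpf). Of the 111 genes, 12 lower and 8 higher ones were called under each of the 15 alternatives run, and none changed direction in any of these.

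Some of the oxygen-response genes were lower in DMSO from the start. Of 43 genes tested on the list for hypoxia and glycolysis, which was chosen with earlier results of these data known, 7 were called lower (16.3%) and 0 higher, against 0.169% and 0.289% of all genes. The list's median log2 fold change was -0.16, and 35 of the 43 had a negative value. In 26 of the 43 the libraries of the groups did not overlap (60.5%, against 22.8% of all genes), 22 of them lower and 4 higher in DMSO from the start. Further called genes of the pathway that are not on the list are described below with it, and these were chosen after their values were seen.

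Among the enzymes that mark HIF, EGLN3 (ENSDARG00000032553), a prolyl hydroxylase of the alpha subunits and itself a HIF target, had 13.4, 16.8 and 12.9 CPM in DMSO from the start, against 61.8, 62.1 and 58.7 CPM in DMSO from 24 hpf. The groups lay far apart and neither had a library between them. EGLN3 was 4.25-fold lower (log2 fold change -2.09 ± 0.31, SE; edgeR, adjusted p = 0.000159). HIF1AN (ENSDARG00000031915), the asparagine hydroxylase that keeps HIF from its coactivators, had 23.6, 21.1 and 23.2 CPM in DMSO from the start, against 34.8, 35.5 and 35.8 CPM in DMSO from 24 hpf. Its libraries did not overlap either (log2 fold change -0.64 ± 0.12, edgeR, adjusted p = 0.00413). The von Hippel-Lindau gene vhl (ENSDARG00000070617), whose product delivers the hydroxylated subunits to degradation, had 8.05, 8.31 and 8.21 CPM in DMSO from the start, against 14.7, 13.8 and 14.7 CPM in DMSO from 24 hpf. This was a 1.75-fold lower level (log2 fold change -0.81 ± 0.16, edgeR, adjusted p = 0.00703). Of the 2 genes with the symbol EGLN1, the main oxygen sensor of the family in mammals, the more abundant (ENSDARG00000004632) did not overlap between the groups but missed the threshold (log2 fold change -0.54 ± 0.14, edgeR, adjusted p = 0.060).

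The HIF subunits themselves were not called. HIF1A (ENSDARG00000034293) averaged 188 CPM in DMSO from the start and 173 CPM in DMSO from 24 hpf (log2 fold change 0.12 ± 0.12, edgeR, adjusted p = 0.942). The values of the further alpha subunit genes hif1aa and hif1al were -0.21 ± 0.14 and -0.29 ± 0.11. Those of the 2 EPAS1 genes, which encode HIF-2 alpha, were 0.17 ± 0.14 and 0.03 ± 0.14. HIF activity is set mainly at the protein, which was not measured.

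Several targets of the pathway were called lower. P4HA1 (ENSDARG00000071082), a catalytic subunit of the collagen prolyl 4-hydroxylase, had the lowest p of all genes. Its level was 27.0, 27.2 and 31.6 CPM in DMSO from the start, against 72.8, 74.8 and 77.5 CPM in DMSO from 24 hpf (log2 fold change -1.39 ± 0.15, edgeR, adjusted p = 4.96e-07). The gap between the groups was several times the range within either. ANKRD37 (ENSDARG00000056376), an ankyrin repeat gene induced by HIF in mammalian cells, had 10.4, 11.3 and 10.22 CPM in DMSO from the start, against 33.8, 33.7 and 34.8 CPM in DMSO from 24 hpf. It was 3.21-fold lower, with almost no spread inside the groups (log2 fold change -1.68 ± 0.27, edgeR, adjusted p = 0.000628). PFKFB3 (ENSDARG00000001953), which makes the allosteric activator of glycolysis fructose 2,6-bisphosphate, had 41.9, 42.9 and 43.2 CPM in DMSO from the start, against 76.5, 77.8 and 73.0 CPM in DMSO from 24 hpf. It was 1.77-fold lower (log2 fold change -0.83 ± 0.16, edgeR, adjusted p = 0.00412).

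Both genes with the symbol NDRG1, a stress gene induced by low oxygen, were lower. The more abundant (ENSDARG00000032849) had 124, 116 and 127 CPM in DMSO from the start, against 167, 180 and 168 CPM in DMSO from 24 hpf (log2 fold change -0.49 ± 0.09, edgeR, adjusted p = 0.00195). The other (ENSDARG00000010420) had 15.5, 16.3 and 15.9 CPM in DMSO from the start, against 29.1, 32.6 and 28.3 CPM in DMSO from 24 hpf (log2 fold change -0.92 ± 0.22, edgeR, adjusted p = 0.0363). The groups did not overlap for either copy. VEGFA (ENSDARG00000034700), the main growth factor of blood vessels, had 16.2, 15.5 and 16.4 CPM in DMSO from the start, against 21.7, 21.6 and 22.6 CPM in DMSO from 24 hpf. The difference was small but larger than the spread (log2 fold change -0.45 ± 0.11, edgeR, adjusted p = 0.0423). The second gene with that symbol (ENSDARG00000103542) had -0.33 ± 0.18 and was not called.

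CITED2 (ENSDARG00000030905), which competes with HIF for the coactivators CBP and p300, had 27.5, 26.5 and 25.2 CPM in DMSO from the start, against 47.1, 42.5 and 43.6 CPM in DMSO from 24 hpf (log2 fold change -0.75 ± 0.13, edgeR, adjusted p = 0.00228). SLC16A3 (ENSDARG00000045051), the lactate exporter MCT4, had 55.6, 51.3 and 55.8 CPM in DMSO from the start, against 72.3, 80.6 and 76.3 CPM in DMSO from 24 hpf (log2 fold change -0.49 ± 0.11, edgeR, adjusted p = 0.027). LOXL2, an enzyme that crosslinks collagen, had 66.4, 63.2 and 66.3 CPM in DMSO from the start, against 78.3, 81.1 and 84.2 CPM in DMSO from 24 hpf (log2 fold change -0.31 ± 0.08, edgeR, adjusted p = 0.0423). In all 3 genes the groups did not overlap, and LOXL2 had the smallest difference of the called genes of the pathway described here. LOXL2 lost its call under 9 of the 15 alternatives, VEGFA under 8, SLC16A3 and the less abundant NDRG1 copy under 5 each, and HIF1AN and vhl under 1 each.

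**Figure D1:**
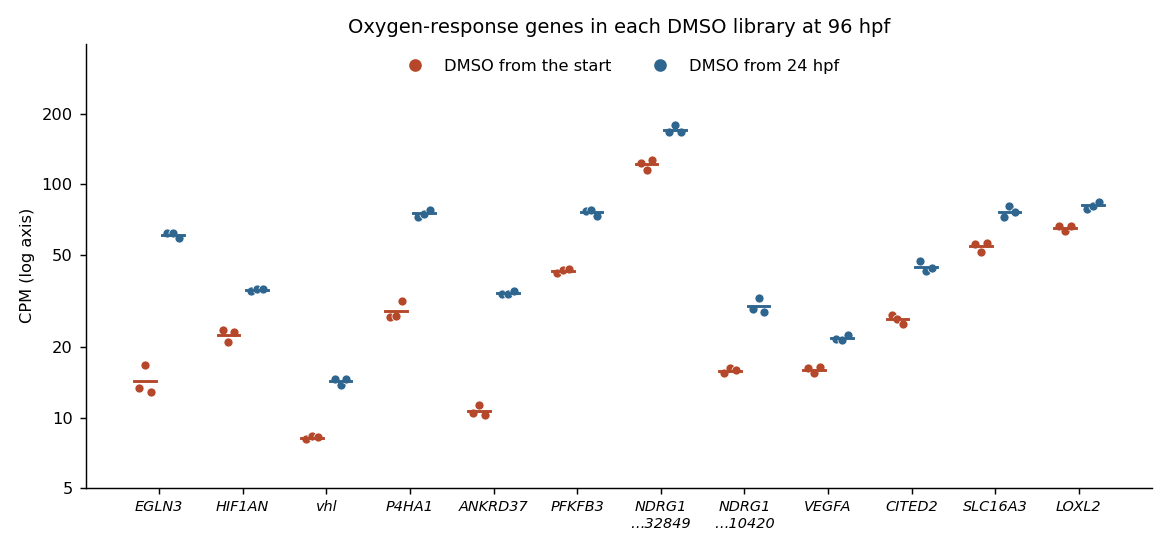
CPM on a log axis of 12 called oxygen-response genes in the 3 libraries of DMSO from the start (red, left of each pair) and the 3 of DMSO from 24 hpf (blue) at 96 hpf; bars are group means and the NDRG1 copies carry the last digits of their identifiers. In each gene all 3 libraries of DMSO from the start lie below all 3 of DMSO from 24 hpf, with the widest gap in EGLN3 (12.9 to 16.8 CPM against 58.7 to 62.1 CPM).

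Not every gene of the list was called. The enzymes of glycolysis were measured by 19 genes, of which 0 were called, against 0.458% of all genes. At that share a set of this size can easily hold no call. Of these 19 genes, 15 had a negative value. Their log2 fold changes lay between -0.24 and 0.09 with a median of -0.14. Among the 19, LDHA, lactate dehydrogenase, had the lowest adjusted p (log2 fold change -0.17 ± 0.09, edgeR, adjusted p = 0.643). GAPDH averaged 1131 CPM in DMSO from the start and 1314 CPM in DMSO from 24 hpf (log2 fold change -0.22 ± 0.24). The 2 glucose transporter genes with the symbol SLC2A1 had log2 fold changes of 0.00, and epoa, the hormone that drives red blood cell formation, had -0.53 ± 0.30 at under 1 CPM. A value on the other side of 0 was found for IGFBP1 (ENSDARG00000099351), a binding protein of insulin-like growth factors. It averaged 71.8 CPM in DMSO from the start and 45.8 CPM in DMSO from 24 hpf and was not called (log2 fold change 0.65 ± 0.23, edgeR, adjusted p = 0.27).

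The levels of these genes were also read by age in the libraries of DMSO from 24 hpf. EGLN3 had 6.26, 4.72 and 9.80 CPM at 36 hpf, after 12 h in the vials, 46.4 and 44.6 CPM at 48 hpf, after 24 h, and 61.8, 62.1 and 58.7 CPM at 96 hpf. The level at 48 hpf was thus already above that of DMSO from the start at 96 hpf. ANKRD37 had 5.78, 5.91 and 9.55 CPM at 36 hpf and 60.7 and 55.8 CPM at 48 hpf, above the 33.7 to 34.8 CPM of DMSO from 24 hpf at 96 hpf. P4HA1 had 30.1, 28.6 and 34.0 CPM at 36 hpf, overlapping the 27.0 to 31.6 CPM of DMSO from the start at 96 hpf, and 67.3 and 66.1 CPM at 48 hpf. PFKFB3 had 8.42, 8.56 and 11.14 CPM at 36 hpf and 41.8 and 43.4 CPM at 48 hpf, the level of DMSO from the start at 96 hpf. Not all called genes of the pathway had this course. The more abundant NDRG1 copy (ENSDARG00000032849) had 81.7, 76.5 and 82.0 CPM at 36 hpf and 75.998 and 75.5 CPM at 48 hpf, all below the 116 to 127 CPM of DMSO from the start at 96 hpf. SLC16A3 (ENSDARG00000045051) averaged 27.8 CPM at 36 hpf and 33.0 CPM at 48 hpf, also below DMSO from the start at 96 hpf. Age and hours in the vials move together in these libraries, no library of DMSO from the start was taken at 36 or 48 hpf, and these levels were not tested.

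The start of the exposure could also be compared in libraries that the DMSO comparison does not use. Rotenone at 25 nM, with 4 libraries from the start and 3 from 24 hpf, gave 577 called genes (2.38% of those tested), 221 of them lower from the start (0.911%). That count was 299 and 224 without rotenone from the start replicates 1 and 2, and 136 and 117 without rotenone from 24 hpf replicates 1 and 2. Of the 111 genes called in DMSO, 110 had the same sign in rotenone and 89 were called there with the same sign, which are 80.2% of the 111 and 15.4% of the 577. All 70 genes that were higher in DMSO from the start had a positive value in rotenone, and 57 of them were called. Of the 41 lower genes, 40 had a negative value and 32 were called. The median log2 fold change of the 41 was -0.74 in DMSO and -0.75 in rotenone, and that of the 70 was 1.09 in DMSO and 1.00 in rotenone. Across the 111 genes, which were selected by their DMSO call, the log2 fold changes in DMSO and rotenone had r = 0.93, and across all 24246 genes r = 0.42, both as descriptions across genes, which are not independent. The exception in sign was si:dkey-105n5.5, which had under 1 CPM in each library (log2 fold change -2.32 in DMSO and 0.69 in rotenone). The start difference itself did not differ detectably between DMSO and rotenone, with 0 genes called in the interaction test of edgeR and 316 at an unadjusted p under 0.05. DESeq2 called 1 gene in the same test, si:ch211-158m24.12, which is named here after its value was seen. The rotenone starts differ by the same hours in the vials and the same storage, and rotenone was itself given in DMSO, so these libraries cannot separate the solvent from the rest either.

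**Figure D2:**
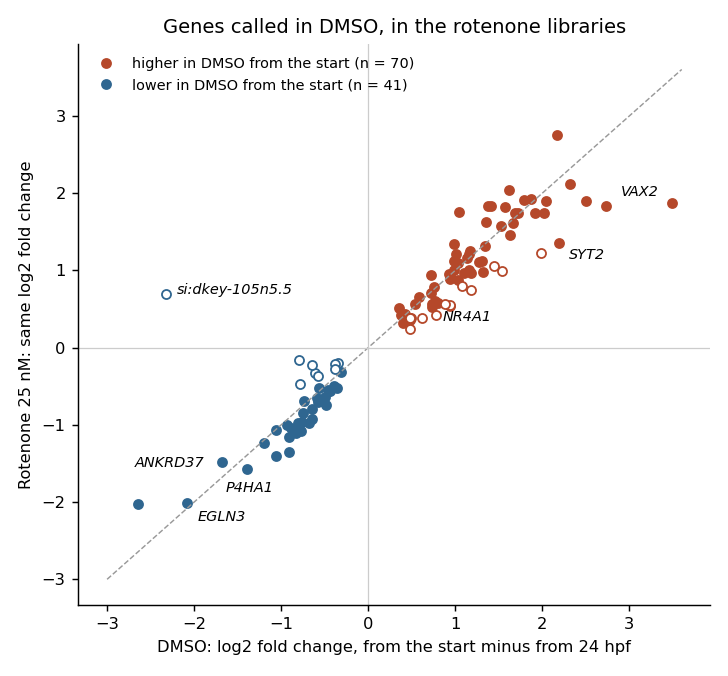
Log2 fold change (from the start minus from 24 hpf) of the 111 genes called in DMSO, in DMSO (horizontal axis) and in rotenone 25 nM (vertical axis); filled points were called in rotenone as well, open points were not, and the dashed line marks equal values. The points follow the line, with 110 of 111 on the same side of 0 on both axes and si:dkey-105n5.5 as the exception.

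The oxygen-response genes were among those shared. EGLN3 had 24.8, 14.4, 11.7 and 11.3 CPM in rotenone from the start, against 70.5, 59.0 and 60.5 CPM in rotenone from 24 hpf (log2 fold change -2.01, edgeR, adjusted p = 1.50e-05). P4HA1 had 35.3, 30.7, 29.1 and 23.0 CPM in rotenone from the start, against 105.1, 87.8 and 71.1 CPM in rotenone from 24 hpf (log2 fold change -1.57). Neither gene had overlapping groups. The levels of EGLN3 stood close to those in DMSO in most libraries. P4HA1 in rotenone from 24 hpf reached well above the 72.8 to 77.5 CPM of DMSO from 24 hpf. On the list for hypoxia and glycolysis rotenone had 11 of 43 genes called lower and 0 higher, with a median of -0.24. Over all 24246 genes, rotenone had 221 called lower and 356 higher. Sorafenib at 2.4 µM, which changes expression widely, gave 5994 called genes (24.7%), 2393 of them lower from the start (9.87%), and 3613 without sorafenib from 24 hpf replicate 3. There the list had 14 of 43 genes called lower and 11 higher, where 2393 and 3601 of all 24246 genes were. EGLN3 and ANKRD37 had log2 fold changes of -1.87 and -1.37 between the sorafenib starts and P4HA1 had -0.70. SLC16A3, LOXL2, vhl and the less abundant NDRG1 copy (ENSDARG00000010420) were called in DMSO and not in sorafenib. Their log2 fold changes in sorafenib were 0.15, -0.17, -0.35 and -0.32. Of the 111 genes, 100 had the same sign in sorafenib and 69 were called there with it, while 4 that were higher in DMSO from the start were called lower in sorafenib from the start. These were gata1a (log2 fold change -1.04 in sorafenib), SLC25A25 (ENSDARG00000010572, -0.74), SIK1 (-0.56) and ENSDARG00000100185 (-0.65), and the difference between DMSO and sorafenib was not tested.

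**Figure D3:**
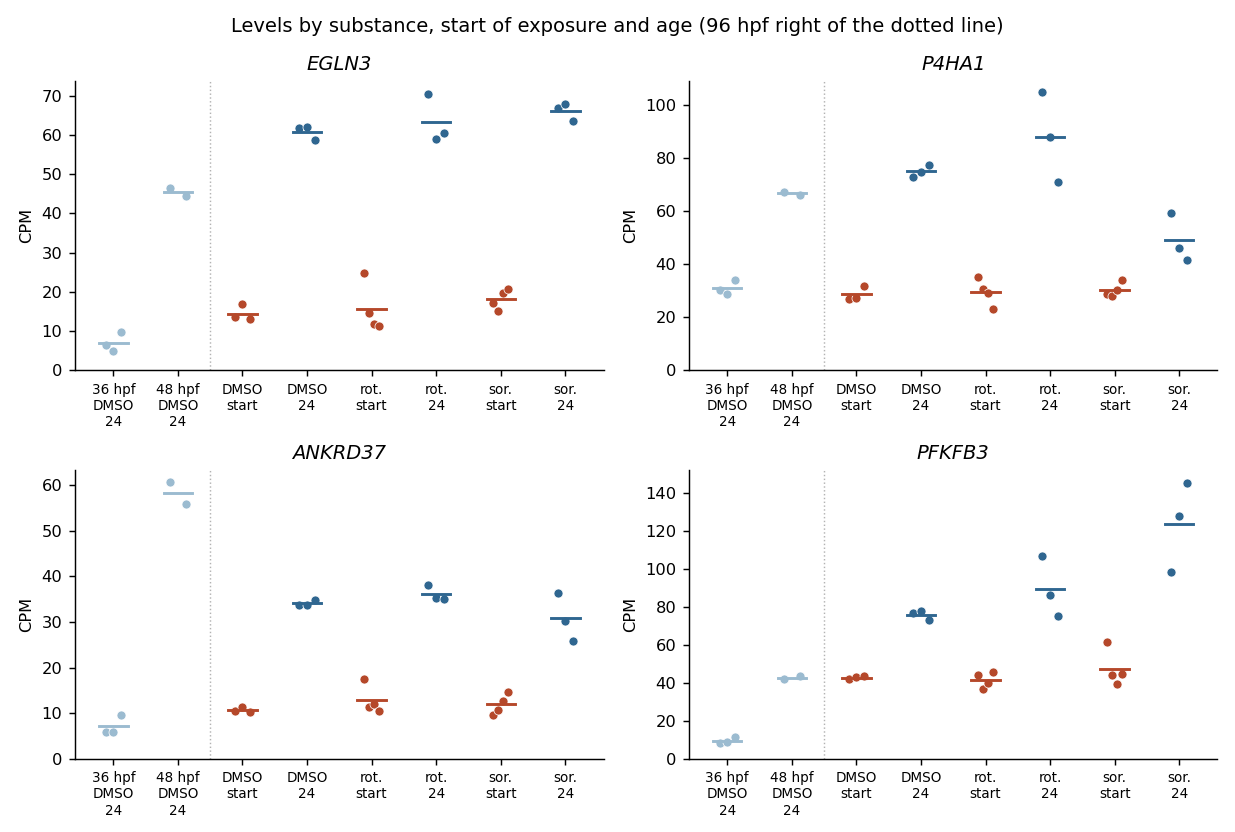
CPM of EGLN3, P4HA1, ANKRD37 and PFKFB3 in single libraries with group means, for DMSO from 24 hpf at 36 and 48 hpf (light blue, left of the dotted line) and at 96 hpf for DMSO, rotenone 25 nM (rot.) and sorafenib 2.4 µM (sor.) from the start (red) and from 24 hpf (blue). EGLN3 lay at 11.3 to 24.8 CPM in all libraries from the start and at 58.7 to 70.5 CPM in all libraries from 24 hpf at 96 hpf.

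Other genes lower in DMSO from the start do varied work. EEF2K, the kinase that slows elongation in protein synthesis, had 91.0, 96.2 and 91.8 CPM in DMSO from the start, against 154, 137 and 125 CPM in DMSO from 24 hpf (log2 fold change -0.57 ± 0.08, edgeR, adjusted p = 0.00011). The zinc finger gene ZNF395 (ENSDARG00000060113) had 46.0, 50.3 and 50.4 CPM in DMSO from the start, against 107, 101 and 96.7 CPM in DMSO from 24 hpf (log2 fold change -1.06 ± 0.15, edgeR, adjusted p = 0.00011). ARRDC3 (ENSDARG00000036028), an arrestin-domain protein that acts on adrenergic receptors in mammals, had 43.7, 48.0 and 45.6 CPM in DMSO from the start, against 98.4, 99.9 and 87.2 CPM in DMSO from 24 hpf (log2 fold change -1.06 ± 0.16, edgeR, adjusted p = 0.000241). In all 3 genes, and in nt5dc2 (log2 fold change -0.82) and FAM13A (-0.59), the groups did not overlap and the call held under each alternative.

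Among 32 histone genes, whose median was -0.09, 2 were called lower and 0 higher, against 0.169% and 0.289% of all genes. One of these, histh1l1, had 297, 298 and 327 CPM in DMSO from the start, against 524, 563 and 489 CPM in DMSO from 24 hpf (log2 fold change -0.77 ± 0.19, edgeR, adjusted p = 0.0416), and the groups did not overlap. The ubiquitin ligase gene FBXO32, known from muscle atrophy in mammals, had 5.37, 4.88 and 6.51 CPM in DMSO from the start, against 8.34, 11.9 and 11.3 CPM in DMSO from 24 hpf (log2 fold change -0.91 ± 0.18, edgeR, adjusted p = 0.00688). The cryptochrome cry4 was the one called gene of 40 clock genes, where 0.458% of all genes were called. It had 37.1, 38.2 and 37.9 CPM in DMSO from the start, against 60.3, 59.3 and 57.3 CPM in DMSO from 24 hpf (log2 fold change -0.64 ± 0.12, edgeR, adjusted p = 0.00284), while PER2 was at 218 and 221 CPM (log2 fold change -0.02). In 16 of the 40 clock genes the libraries of the DMSO groups did not overlap, against 22.8% of all genes. The hour of the day at sampling is not given in the labels.

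Genes of blood and liver were among those called. The list for hemoglobins and heme synthesis had 1 of 26 genes called higher and 1 lower, against 0.289% and 0.169% of all genes. The list for inflammation, complement and acute phase had 1 of 28 called higher and 1 lower. Liver secreted proteins had 0 of 53 called, and with 0.458% of all genes called a list of this size can easily hold no call. The complement gene c9 had 138, 122 and 117 CPM in DMSO from the start, against 211, 184 and 163 CPM in DMSO from 24 hpf (log2 fold change -0.57 ± 0.13, edgeR, adjusted p = 0.0254). In the cytochrome P450 family cyp2aa8, cyp2aa3 and cyp2aa4 were lower, with log2 fold changes of -0.78, -0.79 and -0.61, and genes of one family could share reads. The erythroid genes kel, a blood group antigen, and nt5c2l1, a nucleotidase, had -1.19 and -0.68. The erythroid transcription factor gata1a had 1.04, at 0.949, 0.787 and 1.19 CPM in DMSO from the start, against 0.51, 0.339 and 0.616 CPM in DMSO from 24 hpf. The calls were lost under 10 of the 15 alternatives for gata1a, 7 for nt5c2l1, 5 each for kel and c9, 4 each for cyp2aa8 and cyp2aa3 and 7 for cyp2aa4. Since these are whole bodies, fewer cells of a type and less RNA per cell cannot be told apart.

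The 70 genes higher in DMSO from the start fell into a narrow and a wide set by the spread within that group, a division made after the values were seen. In 32 of them the highest library of DMSO from the start was at most 1.5 times the lowest, and in 38 it was more. The narrow set had a median mean level of 12.2 CPM and a median log2 fold change of 0.76, the wide set 2.85 CPM and 1.53. Of the 41 lower genes, 37 were narrow.

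The narrow set held several regulators. The nuclear receptor NR4A1, an immediate-early gene, had 41.1, 44.1 and 46.9 CPM in DMSO from the start, against 27.1, 29.2 and 23.5 CPM in DMSO from 24 hpf (log2 fold change 0.73 ± 0.13, edgeR, adjusted p = 0.0023). The kinase gene MAPK6 had 80.8, 73.1 and 75.7 CPM in DMSO from the start, against 57.7, 57.1 and 56.6 CPM in DMSO from 24 hpf (log2 fold change 0.42 ± 0.08, edgeR, adjusted p = 0.0023). The deubiquitinase gene cyld2 had 10.9, 10.17 and 10.4 CPM in DMSO from the start, against 5.34, 4.60 and 4.099 CPM in DMSO from 24 hpf (log2 fold change 1.16 ± 0.21, edgeR, adjusted p = 0.00228). All 3 genes were above the other group in each library and were called under each alternative.

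The same was true of znf750, a transcription factor of the epidermis in mammals, with 5.86, 5.01 and 5.71 CPM in DMSO from the start, against 3.40, 2.45 and 2.91 CPM in DMSO from 24 hpf (log2 fold change 0.92 ± 0.15, edgeR, adjusted p = 0.000398). It also held for nfe2l1b, a factor that controls proteasome genes in mammals (log2 fold change 0.48 ± 0.09, edgeR, adjusted p = 0.0023), for zgc:153115 (0.54) and for si:dkey-242k1.6, which had the lowest p of the higher genes (log2 fold change 0.75 ± 0.12, edgeR, adjusted p = 0.000241). Smaller called differences were found for the chromatin enzymes EZH2 (log2 fold change 0.43), a histone methyltransferase, and dnmt3ba (0.36), a DNA methyltransferase. JUND and REL, subunits of AP-1 and NF-kB, had 0.62 and 0.48, the kinase gene SIK1 0.73 and the nocturnin gene NOCT (ENSDARG00000077726) 0.49. EZH2 lost its call under 1 of the 15 alternatives and the other 5 under 5 to 7 of them.

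Genes of liver and metabolism were also among the higher ones. The iron hormone hepcidin, hamp, had 10.5, 9.29 and 8.63 CPM in DMSO from the start, against 5.22, 4.53 and 4.62 CPM in DMSO from 24 hpf (log2 fold change 0.98 ± 0.20, edgeR, adjusted p = 0.00963). The fatty acid elongase elovl6l had 13.4, 11.6 and 11.8 CPM in DMSO from the start, against 6.89, 7.22 and 7.41 CPM in DMSO from 24 hpf (log2 fold change 0.77 ± 0.17, edgeR, adjusted p = 0.0183). Glucokinase, gck, which phosphorylates glucose in the liver, varied more, with 5.67, 2.61 and 9.03 CPM in DMSO from the start, against 2.61, 1.45 and 2.00 CPM in DMSO from 24 hpf (log2 fold change 1.54 ± 0.33, edgeR, adjusted p = 0.0139). Its lowest library of DMSO from the start was barely above the highest of DMSO from 24 hpf. The calls were lost under 5 of the 15 alternatives for elovl6l, 3 for gck and 1 for hamp.

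The wide set held mostly genes of low level, though SPRED2 reached a mean of 18.8 CPM in DMSO from the start. The genes described from it were partly chosen after their values were seen, and no theme was tested. The synaptic vesicle protein SYT2 (ENSDARG00000025206) had 1.03, 2.87 and 5.32 CPM in DMSO from the start, against 0.766, 0.490 and 0.827 CPM in DMSO from 24 hpf (log2 fold change 2.19 ± 0.40, edgeR, adjusted p = 0.00282). The GTPase regulator SRGAP3 had 5.88, 9.76 and 15.0 CPM in DMSO from the start, against 2.16, 2.34 and 4.45 CPM in DMSO from 24 hpf (log2 fold change 1.79 ± 0.37, edgeR, adjusted p = 0.01). In both genes the libraries of DMSO from the start differed among themselves by more than their lowest differed from DMSO from 24 hpf.

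That order was shared by the wide set. Replicate 1 of DMSO from the start was the lowest of its group in 36 of the 38 genes and replicate 3 the highest in 34, and replicate 3 of DMSO from 24 hpf was the highest of its group in 34. Over all genes tested, the same libraries were lowest in 37.7%, highest in 34.4% and highest in 31.5%. Replicate 1 of DMSO from the start also had the largest share of counts in ribosomal protein genes, 6.30%, against 5.59% and 5.49% in replicates 2 and 3, while DMSO from 24 hpf had 6.00%, 6.02% and 5.97%. Its TMM factor was 1.05, against 1.101 and 1.11 for replicates 2 and 3, and those of DMSO from 24 hpf were 1.05, 1.05 and 1.09. The part of these library differences in the calls was not tested. The potassium channel kcnc3b (log2 fold change 1.57) and the calcium channel subunit CACNB4 (2.04) belong to the same set. So do the phosphodiesterase PDE4D (1.99) and the scaffold DLG4 (ENSDARG00000041926, 1.34). The calls were lost under 4 of the 15 alternatives for kcnc3b, 5 for CACNB4, 3 for PDE4D and 6 for DLG4. SYT2 and SRGAP3 lost theirs under 3 each. The list for neurons and glia had 0 of 46 genes called, against 0.458% of all genes, and a median of -0.06. At that share a list of this size can easily hold no call. ELAVL4, a marker of neurons, averaged 406 CPM in DMSO from the start and 388 CPM in DMSO from 24 hpf. The neuron marker ELAVL3 averaged 333 and 278 CPM, without overlap and without a call (log2 fold change 0.26 ± 0.14, edgeR, adjusted p = 0.663).

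**Figure D4:**
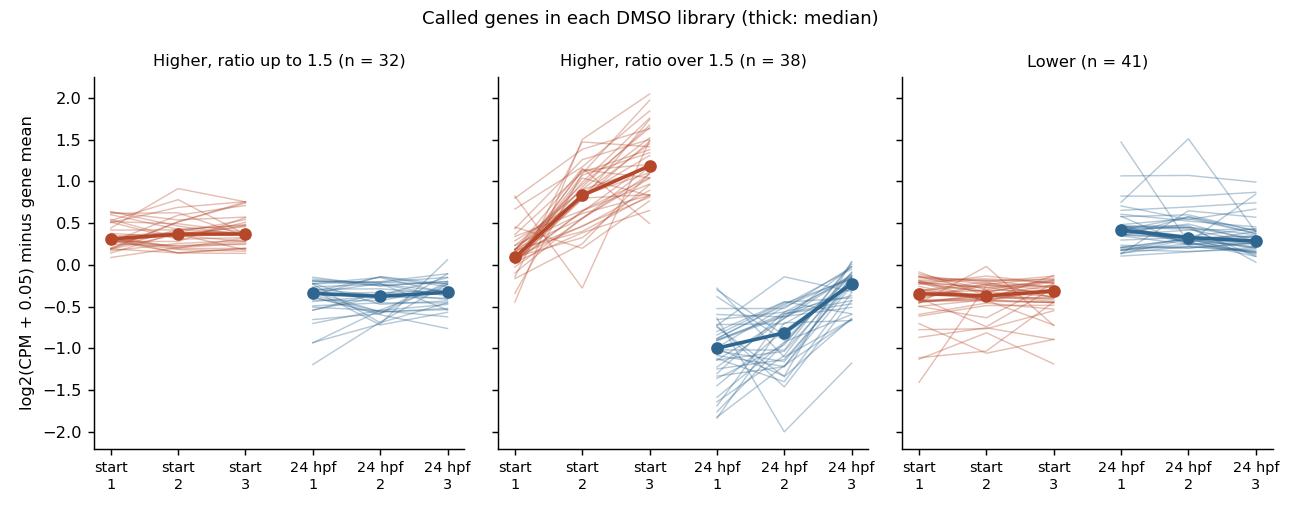
Level of the 111 called genes in each of the 6 DMSO libraries as log2(CPM + 0.05) minus the mean of the gene, in 3 panels for the higher genes with a ratio up to 1.5 between the highest and the lowest library of DMSO from the start (n = 32), the higher genes with a larger ratio (n = 38) and the lower genes (n = 41); thin lines are genes, thick lines medians. In the middle panel replicate 1 of DMSO from the start lies lowest and replicate 3 highest, and replicate 3 of DMSO from 24 hpf lies above the other 2, while the medians of the outer panels are nearly level within the groups.

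Few genes of the other lists were called. Of 32 lists, 26 had 0 called genes among 958 genes tested, with medians between -0.24 and 0.25. Of all genes 0.458% were called, a share at which a single short list can easily hold no call. Exocrine pancreas had the highest median (0.25, 6 of 27 genes below 0), followed by lens crystallins (0.15, 9 of 54 below 0) and intestine (0.13, 10 of 39 below 0). In rotenone the crystallin median was -0.28, of the opposite sign. Only 1 of the 54 crystallins had DMSO groups without overlap, against 22.8% of all genes. CRYBB1 had 1094, 782 and 838 CPM in DMSO from the start, against 1045, 799 and 381 CPM in DMSO from 24 hpf. The low replicate 3 of DMSO from 24 hpf recurred in crybb1l1 (1265, 981 and 467 CPM) and CRYAA (28.4, 24.3 and 12.2 CPM). For pancreas and intestine, prss1 (402, 260 and 265 CPM) and fabp2 (435, 271 and 295 CPM) were highest in replicate 1 of DMSO from the start. Hatching gland (median -0.24, 10 genes) and markers of neutrophils and macrophages (-0.21, 16 of 19 below 0) had the lowest medians, and marco, a scavenger receptor of macrophages, had the lowest p of the latter (log2 fold change -0.48, edgeR, adjusted p = 0.554). Cytosolic ribosomal proteins (median -0.09, 74 of 80 below 0) and skeletal muscle (-0.10, 42 of 48 below 0) lay mostly below 0. The median of all genes was -0.02 with 53.8% of genes below 0.

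No called gene was present on one side only, where present means at least 10 counts in each library of one group and absent at most 3 in each of the other. Limits of at least 20 against at most 1 and of at least 10 against 0 are stricter, so their 0 called genes followed from this result. Genes without a call were not counted. The called gene VAX2 had 0.298, 0.472 and 0.570 CPM in DMSO from the start, against 0.079, 0 and 0.038 CPM in DMSO from 24 hpf. On the list for xenobiotic receptors and metabolism 1 of 34 genes was called, cyp2aa8 (median 0.00). The called genes cyp2aa3 and cyp2aa4 of the same family, described above, are not on that list. The list for Nrf2 and glutathione defence had 0 of 39 genes called (median -0.04), the heat shock list 0 of 33 (median 0.06) and the list for DNA damage and p53 0 of 28 (median -0.06). With 0.458% of all genes called, 0 or 1 calls in lists this short say little about them. The DMSO groups did not overlap in 14 of the 33 heat shock genes, against 22.8% of all genes. Rotenone had 3 of the 33 called higher, against 356 of all 24246 genes. In the heat shock list SERPINH1 (ENSDARG00000019949), a collagen chaperone, averaged 139 CPM in DMSO from the start and 79.8 CPM in DMSO from 24 hpf without passing the threshold (log2 fold change 0.80, edgeR, adjusted p = 0.11).

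**Figure D5:**
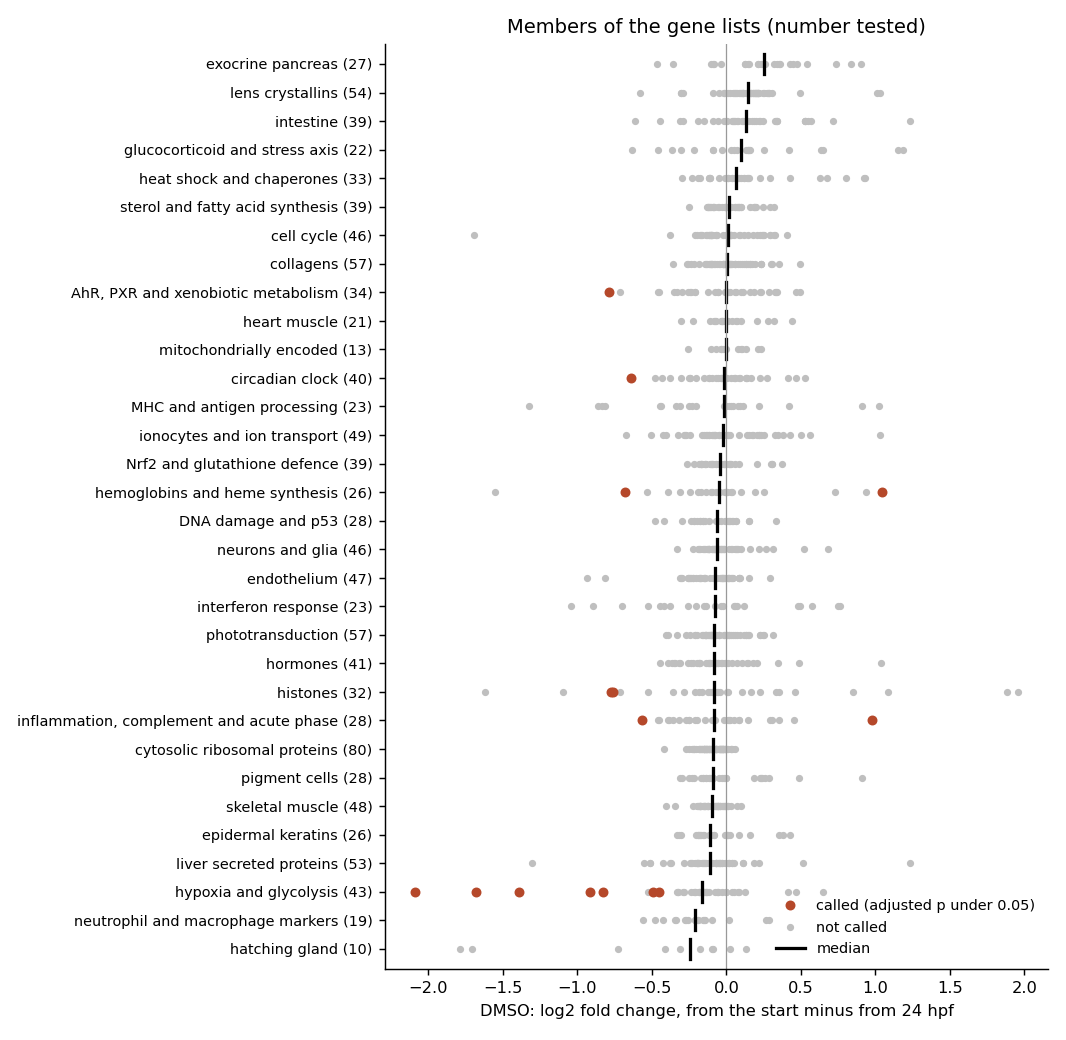
Log2 fold change (DMSO from the start minus DMSO from 24 hpf) of the members of 32 gene lists, ordered by their median (black bar); red points were called at an adjusted p under 0.05 and grey points were not, and the number of genes tested stands in parentheses. The list for hypoxia and glycolysis has 7 called genes, all below 0, and no other list has more than 2.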

How the data were processed

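The authors aligned reads to GRCz11 with HISAT2 2.1.0, discarded alignments with a mapping quality of 30 or less, and used featureCounts 2.0.3 for counting. The deposited table holds these raw counts of 32520 genes, and a deposited table of sample information lists the reads per library. The annotation release is not given in the sources used here. The library kit keeps strand, but the strand setting of the counting is not stated, so overlapping genes on opposite strands are uncertain. Of the 57 libraries, the 55 that the study kept were fitted in 18 groups with edgeR 4.0.16 in R 4.3.3 (filterByExpr by group, TMM, glmQLFit, glmQLFTest, 24246 genes), so that all groups share one estimate of the spread. A called gene has p under 0.05 after Benjamini-Hochberg adjustment, and the SE of a log2 fold change is its size divided by the root of F. CPM use TMM-scaled library sizes (prior count of 2 for log2 CPM). DESeq2 1.42.0 served as an alternative. The edgeR steps of the DMSO comparison (filter, scaling, fit and test) were tested on simulated counts, and the other steps were not.

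Symbols came from a supplement of the study and a table of gene names (29220 identifiers). Capitals are names of that table, and genes that share a symbol carry their identifier. The members and the gene lists were chosen with earlier results of these data known. Genes named by rule were called, had a symbol and groups without overlap: the 12 with the lowest p and the 8 with the largest change (mean of at least 1 CPM) per direction, up to 6 called members of each list, and the 3 most abundant members of lists with fewer than 2 calls. All other genes named, HIF1AN, vhl, VEGFA, SLC16A3 and LOXL2 among them, were chosen after their values were seen. Alternatives were RLE, DESeq2, other filters, smaller fits, a replicate block, libraries added or left out, and for the developmental score and the counts on one side other cutoffs. Counting error is small at these depths except for genes near 1 CPM. Gene sequences were not analysed here. Some genes that the rule names are not reported here.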

Additional observations from a re-analysis of the deposited data

How the results depend on the processing

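The count of 111 called genes (70 higher, 41 lower in DMSO from the start) moved by over 1.5 times under 10 of the 15 alternatives, 6 of which leave out a library. It was 419 (257 higher, 162 lower) in a fit of the 6 DMSO libraries, 361 (226 higher, 135 lower) in a fit of the 96 hpf libraries, 939 (621 higher, 318 lower) without the 3 libraries that stand apart and 218 (152 higher, 66 lower) with DESeq2. With each of the 6 libraries left out in turn it lay between 24 and 183 (10 to 143 higher, 14 to 40 lower), and an arm of 2 libraries also has less power. The hypoxia list had 5 to 10 lower genes under all 15 alternatives, 12 of which were added for it after seeing the data. EGLN3, P4HA1, ANKRD37, PFKFB3 and the more abundant NDRG1 copy were called under each of the 15, whereas VEGFA lost its call under 8 and the other NDRG1 copy under 5. The rotenone count of 577 was 895 with DESeq2 and 117 to 516 with a library left out, and the sorafenib count of 5994 was 3613 to 6256 with a library left out. The interaction between DMSO and rotenone had 0 genes under all edgeR alternatives and 1 with DESeq2.

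The titles number the controls 1 to 3 in both groups and do not say whether these numbers pair them. Deviations from the group means correlated over genes with r = 0.12, -0.01 and 0.18 for libraries of the same number. For libraries of different numbers r lay between -0.20 and 0.09. With 3 libraries per group these values cannot decide whether the numbers pair the groups. With a replicate block over these numbers 115 genes were called (79 higher, 36 lower). The cause of these movements was not tested. Genes near 1 CPM rest on few counts, and 3 libraries per group limit what could be called.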

Other observations

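Iron handling was not among the lists, and its genes are given here as values chosen after they were seen. In DMSO from the start hepcidin (hamp) was higher, as described. The iron-sensing ubiquitin ligase subunit FBXL5 had 51.6, 48.6 and 51.2 CPM in DMSO from the start, against 64.7, 63.8 and 65.1 CPM in DMSO from 24 hpf (log2 fold change -0.35 ± 0.08, edgeR, adjusted p = 0.0271). The ferritin receptor ncoa4, which releases stored iron through autophagy, had 109, 117 and 110 CPM in DMSO from the start, against 145, 153 and 143 CPM in DMSO from 24 hpf (log2 fold change -0.39 ± 0.09, edgeR, adjusted p = 0.0369). The groups did not overlap for either gene, and the calls were lost under 6 of the 15 alternatives for FBXL5 and 7 for ncoa4. Both were called in rotenone as well, with log2 fold changes of -0.53 for FBXL5 and -0.50 for ncoa4. The transferrin receptor tfr1a had a log2 fold change of 0.93 ± 0.36 without passing the threshold (edgeR, adjusted p = 0.337). In rotenone tfr1a was called higher from the start (log2 fold change 1.21, edgeR, adjusted p = 0.0471).

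The 2-oxoglutarate and oxygen dependent RNA demethylase ALKBH5, another enzyme of the chemistry that HIF hydroxylases use, had 22.2, 18.2 and 19.9 CPM in DMSO from the start, against 27.8, 27.1 and 28.2 CPM in DMSO from 24 hpf (log2 fold change -0.46 ± 0.10, edgeR, adjusted p = 0.0139), a call lost under 4 of the 15. Among genes that fasting induces in mammals, FBXO32 was called and PIK3IP1, CCNG2 and TXNIP (ENSDARG00000036107) were not, with log2 fold changes of -0.52, -0.44 and -0.38 and adjusted p-values of edgeR of 0.0637, 0.1002 and 0.159. These genes were picked after their values were seen and do not stand for a fasting response. The metabolic genes IGFBP1 and PCK1 had positive log2 fold changes, 0.65 and 0.15, and were not called either.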
